A study of Rattus norvegicus with 8 samples.

Results

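miR-143 and miR-145 are 2 microRNAs made from neighbouring hairpins. They were followed here in pancreatic islets, the endocrine cell clusters of the pancreas, from adult and from 10-day-old Sprague Dawley rats. Members were taken by name: every non-control feature of the arrays designed for rno-miR-143, rno-miR-145 or the asterisked product of either hairpin. This gave 4 of the 677 miRNAs on the array, with 8 of 1644 probes and 80 of 13540 features, 10 features for each probe. Islets of males 3 months old (adult, 4 arrays) were set against islets of rats 10 days old (P10, 4 arrays), whose sex the labels do not give. Both groups are called controls in the labels, and no treatment is named for either. The labels call the 4 arrays of an age biological replicates and do not say how many animals gave each. Total RNA was labelled with cyanine 3 and hybridised to 1-colour Agilent miRNA arrays, and the series title gives the maturation of beta cells as its subject.

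The cluster is known from smooth muscle. In mouse and human arteries its transcription is driven by serum response factor with myocardin, and both products favour the contractile state of smooth muscle, miR-145 by repressing KLF4 and KLF5 and miR-143 by repressing ELK1. In the mouse intestine the cluster is made in mesenchymal cells and not in the epithelium. miR-143 has also been linked to insulin action, since its overproduction in mouse liver impaired insulin-stimulated AKT activation. Islets are crossed by vessels that carry smooth muscle cells and pericytes, so an islet preparation can hold such cells beside its beta cells.

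Both hairpins lie on rat chromosome 18, on the minus strand, in the RefSeq annotation of assembly GRCr8. They are separated by 1278 bases, Mir143 first in the direction of transcription, and both lie within the interval of the long non-coding RNA gene Carmn, whose synonyms include Mir143hg. The array's own design uses another build (rn4), so no coordinates are given. The hairpins are shown with both mature arms in capitals, because the array holds probes for each arm.
Mir143 hairpin: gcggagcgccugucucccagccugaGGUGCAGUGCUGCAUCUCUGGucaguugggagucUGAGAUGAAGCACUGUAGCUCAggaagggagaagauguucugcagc
Mir145 hairpin: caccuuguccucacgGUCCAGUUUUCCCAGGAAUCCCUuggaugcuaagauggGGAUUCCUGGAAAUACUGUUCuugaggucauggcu

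The arm that the array calls miR-143 is the 3p arm, and the one it calls miR-145 is the 5p arm. The asterisked products are the opposite arms. The mature sequences follow with the seed (bases 2 to 8, which pair with target mRNAs) in capitals.
miR-143-3p: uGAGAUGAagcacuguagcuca
miR-145-5p: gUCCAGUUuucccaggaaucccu
miR-143-5p: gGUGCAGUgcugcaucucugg
miR-145-3p: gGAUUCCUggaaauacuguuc
The 4 seeds differ, and none of the 693 mature miRNA names in the RefSeq table, these 4 aside, carries any of them. The longest run of bases that miR-143-3p and miR-145-5p share is 3. The mature miR-143-3p has 22 bases and a GC content of 45.5%, and miR-145-5p has 23 bases and 52.2%.

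The background-subtracted signal (intensity, in the scanner's arbitrary units) shows which of the 4 products were measured. miR-143 was well above background on all 8 arrays with both of its probes. Its brighter probe gave 8280, 8448, 10598 and 5635 on adult replicates 1 to 4, against 745, 951, 3338 and 9304 on P10 replicates 1 to 4. The adult arrays lay within 1.88-fold of each other and the P10 arrays within 12.5-fold, with P10 replicate 4 inside the adult range. The features of this probe on 1 array had a coefficient of variation of 1.36% to 5.90%, far below the spread between P10 arrays. miR-145 gave 93.2, 87.1, 110.8 and 67.4 on adult replicates 1 to 4, against 7.45, 12.4, 39.8 and 113.3 on P10 replicates 1 to 4. It was well above background on 4 of 4 adult arrays and on 2 of 4 P10 arrays, so that P10 replicates 1 and 2 give no measured level.

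The opposite arms were not well above background on any array with any of their 4 probes, and the scanner software did not call them detected. The probes of miR-145* lay between -4.96 and 0.941, around 0, as did 1 probe of miR-143* (-2.87 to -0.870). The other probe of miR-143* gave 9.81, 5.72, 10.0 and 6.34 on adult replicates 1 to 4, against -2.64, -0.636, 5.05 and 16.6 on P10 replicates 1 to 4. All of these are below the lowest signal that was called well above background on any array (17.7), and no fold is given for them.

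Arrays differed in overall brightness, so each was divided by the 75th percentile of the 278 probes that stood well above background on each of the 8 arrays, and log2 was taken. This percentile was 1354, 1401, 1677 and 1284 on adult replicates 1 to 4, against 388, 440, 989 and 1690 on P10 replicates 1 to 4. All arrays lay on 1 slide, each age in a column of its own, and the effects of age and column cannot be told apart. With limma and an adjusted p under 0.05 (Benjamini-Hochberg), 113 of 238 tested miRNAs (47.5%) differed by age, 65 higher (27.3%) and 48 lower (20.2%) in adult. Other scalings moved this split, to 90 higher and 34 lower when all probes set the percentile, 58 and 17 when nothing was scaled, 59 and 9 on the spike-in controls, 33 and 47 after normexp, and 12 and 22 after cyclic loess across all probes. The median difference of the tested miRNAs (log2) was -0.01 as reported, and 0.45, 0.94, 1.03, -0.28 and 0.15 under those 5 scalings in the same order. Quantile normalization gave a median of 0.11, cyclic loess on bright probes 0.24, the total gene signal 0.11 and the values deposited by the authors 0.15. A difference given here therefore says how a miRNA moved relative to the other measured miRNAs.

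miR-143 was higher in adult islets by a margin that depended on the P10 arrays used. Its scaled log2 signal was 2.61, 2.59, 2.66 and 2.13 on adult replicates 1 to 4, against 0.94, 1.11, 1.75 and 2.46 on P10 replicates 1 to 4. The ages overlapped: P10 replicate 4 lay above adult replicate 4, while the other 3 P10 arrays lay below every adult array. Among the tested miRNAs 109 (45.8%) showed no overlap of the ages. miR-143 averaged 2.50 ± 0.25 in adult and 1.57 ± 0.69 in P10 (SD, n = 4 each), a log2 difference of 0.93 ± 0.33 (SE), or 1.91-fold with a 95% interval of 1.12 to 3.24. It passed the threshold narrowly (limma adjusted p = 0.0485), where 27.3% of tested miRNAs were called higher. The exact two-sided permutation test of the same values gave p = 0.0571, where the smallest possible is 0.0286. The second probe gave 0.30 ± 0.21 in adult and -0.67 ± 0.77 in P10, a difference of 0.98.

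**Figure D1:**
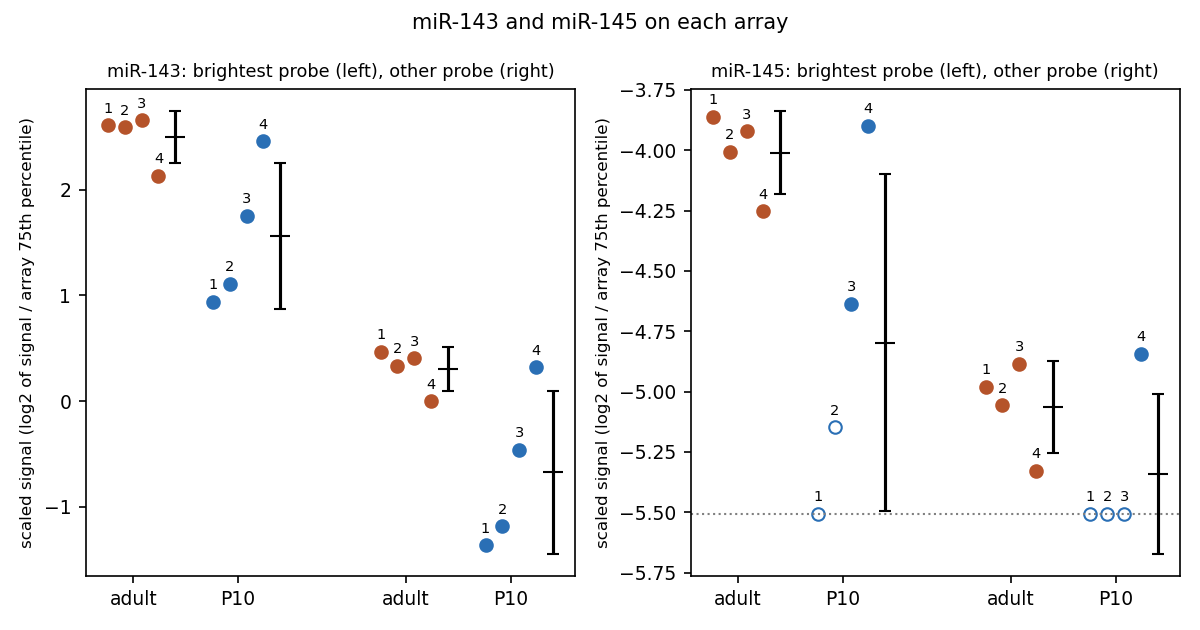
Scaled signal (log2 of the signal over the array's 75th percentile) of miR-143 and miR-145 on each array, numbered by replicate, for both probes of each; the bars are the mean and SD of 4 arrays, open circles are not well above background, and the dotted line is the floor. P10 replicate 4 lies within the adult values, except for the other probe of miR-145, where it lies above them at -4.84, and P10 replicates 1 and 2 lie lowest (for the other probe of miR-145, P10 replicates 1 to 3 all lie at the floor).

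The scaled values of miR-145 followed the P10 order of miR-143, but on P10 replicates 1 and 2 miR-145 was not well above background. Its scaled log2 signal was -3.86, -4.01, -3.92 and -4.25 on adult replicates 1 to 4, against the floor of -5.51, -5.15, -4.64 and -3.90 on P10 replicates 1 to 4. As for miR-143, P10 replicate 4 lay within the adult values and the other 3 P10 arrays lay below all of them. miR-145 averaged -4.01 ± 0.17 in adult and -4.80 ± 0.70 in P10 (SD, n = 4 each). The log2 difference of 0.79 ± 0.32 (SE) did not pass (limma adjusted p = 0.0817). Its size rests in part on P10 replicates 1 and 2, where the probe was not well above background and 1 value is the floor itself, so no fold is given. The other probe, which was well above background on 4 adult arrays and 1 P10 array, gave a difference of 0.28, also set in part by the floor on the P10 arrays.

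The call of miR-143 was not stable, while miR-145 stayed uncalled in most settings. All 27 alternative settings kept miR-143 higher in adult, from 0.39 to 1.98, but only 7 of them called it. Settings that changed only the filter, the floor, the block or the variance estimate left its difference at 0.93 by construction. Without any 1 array the call of miR-143 was lost (0.72 to 1.05, adjusted p 0.0602 to 0.124), except without P10 replicate 4, where it was 1.23 (limma adjusted p = 0.00399). With P10 replicates 3 and 4 alone the difference was 0.39 for miR-143 and 0.26 for miR-145, and neither passed. Without P10 replicate 4 miR-145 passed as well (1.09, limma adjusted p = 0.00503). In all, 25 of 26 settings gave miR-145 as higher in adult and 3 called it, and with normexp it stood at -0.27 (not called).

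**Figure D2:**
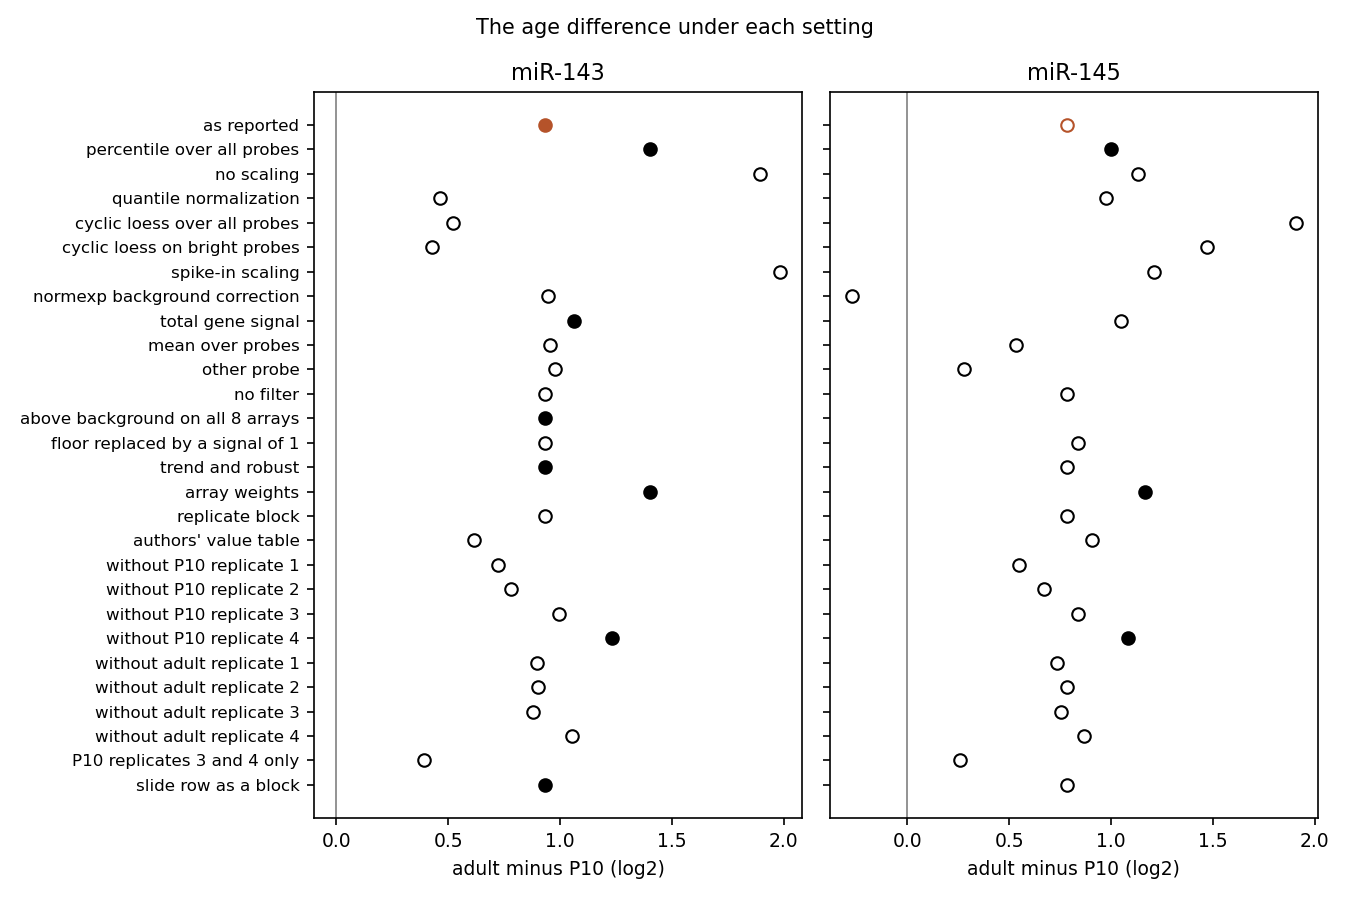
Log2 difference, adult minus P10, of miR-143 (left) and miR-145 (right) under each setting; filled circles have an adjusted p under 0.05 and the uppermost circle in each panel is the value given in the text. All circles for miR-143 lie above 0, from 0.39 to 1.98, and 1 circle for miR-145 lies below 0, at -0.27.

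The authors' deposited table, on a log2 scale with the same set of sorted values in each column, lists both miRNAs and neither asterisked product. In the authors' deposited table miR-143 stood at 12.1, 11.8, 12.0 and 12.0 on adult replicates 1 to 4, against 10.5, 10.8, 11.6 and 12.5 on P10 replicates 1 to 4. P10 replicate 4 was there above every adult array. In the authors' deposited table miR-145 stood at 6.46, 6.37, 6.48 and 6.01 on adult replicates 1 to 4, against 4.78, 4.77, 5.84 and 6.30 on P10 replicates 1 to 4. A limma fit to these values gave 0.62 for miR-143 (adjusted p = 0.232) and 0.91 for miR-145 (adjusted p = 0.0721).

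Both members varied together from array to array. Over the 8 arrays their scaled log2 values had a Pearson correlation of 0.990. This is a description over arrays that share brightness and scaling, with miR-145 not well above background on 2 of them, once at the floor. For each of them the other was the closest of 237 tested miRNAs, while the median correlation of miR-143 with the tested miRNAs was -0.16. Within an array, the log2 ratio of the miR-143 signal to the miR-145 signal does not depend on a scaling by 1 factor per array. It was 6.47, 6.60, 6.58 and 6.39 on adult replicates 1 to 4, against 6.44, 6.26, 6.39 and 6.36 on P10 replicates 1 to 4. On P10 replicates 1 and 2 it uses a miR-145 signal that was not well above background. On the 6 arrays that measured both, the ratio averaged 6.51 ± 0.10 in adult (SD, n = 4) and 6.38 ± 0.02 in P10 (SD, n = 2). The difference on these 6 arrays was 0.13 (exact two-sided permutation p = 0.200, smallest possible 0.0667). Over all 8 arrays the difference was 0.15 (exact two-sided permutation p = 0.0857, smallest possible 0.0286), or 0.10 without the floor on P10 replicate 1 (exact permutation p = 0.371). The ratio compares changes and not amounts, since different probes bind with different strength. Over all 8 arrays its difference turned to -0.51 after quantile normalization, to -1.38 after cyclic loess across all probes and -1.05 on bright ones, and to -0.29 in the authors' value table, while normexp gave 1.22 (exact permutation p = 0.0571). The exact permutation p was 0.0286 for -0.51 and -1.05 and 0.114 for -1.38 and -0.29.

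The next closest patterns were nearly the same for both members. For miR-143 they were miR-140* (Pearson r = 0.985), miR-27a (0.975), miR-140 (0.974) and miR-137 (0.962), and for miR-145 miR-140* (0.976), miR-137 (0.974), miR-27a (0.968) and miR-140 (0.961), over the same 8 arrays. miR-140 and miR-140* are the arms of 1 hairpin known from cartilage, and miR-27a belongs to a cluster with miR-23a and miR-24. miR-140* lay at -1.97, -1.88, -1.84 and -2.06 on adult replicates 1 to 4, against -3.09, -2.94, -2.39 and -2.07 on P10 replicates 1 to 4. On P10 arrays it thus followed the order of miR-143. miR-137, studied mainly in neurons, lay at -3.23, -3.73, -3.48 and -3.53 on adult replicates 1 to 4, against the floor of -5.51 on P10 replicates 1 and 2, -4.44 on replicate 3 and -3.32 on replicate 4. It was well above background on 6 of the 8 arrays, and its likeness to both members rests in part on the 2 values at the floor.

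The spread of miR-143 between arrays of 1 age was above the median. Its SD of 0.69 over P10 arrays compares with a median of 0.38 over the tested miRNAs, 61 of which had a larger SD. Over adult arrays its SD was 0.25, against a median of 0.11, and 31 tested miRNAs had a larger one. The adult SD came mostly from adult replicate 4, at 2.13 against 2.59 to 2.66 on the other 3 adult arrays.

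The order of P10 replicates 1 to 4 for miR-143 (0.94, 1.11, 1.75 and 2.46) was also the order of their brightness (75th percentile signals of 388, 440, 989 and 1690). These arrays lay in slide rows 1, 2, 3 and 4, so brightness and row cannot be told apart on them. Adult replicates 1 to 4, in slide rows 4, 3, 2 and 1, had miR-143 at 2.61, 2.59, 2.66 and 2.13. The P10 order of miR-143 ran opposite to acinar miR-216a, a marker of the exocrine pancreas that surrounds islets. On P10 replicates 1 to 4 miR-216a lay at -0.60, -0.91, -4.77 and the floor of -5.51. Of the 3 acinar miRNAs all were tested and none passed, where 47.5% of all tested miRNAs did. The 95% interval of the log2 difference of miR-216a was wide, from -2.01 to 3.23. The summed scaled signal of the acinar miRNAs, with values at the floor counted as 0, was 0.230 to 0.460 in adult and 0 to 0.961 in P10. The leukocyte list (5 of 6 tested, none passing) had a sum of 1.60 to 1.98 in adult and 0.974 to 4.07 in P10. Its miR-142-3p, made in blood cells, lay between -0.45 and -0.01 in adult, against -2.22, -1.67, -2.07 and 1.36 on P10 replicates 1 to 4. The islet endocrine list (5 of 6 tested, all 5 called higher, where 27.3% of all tested miRNAs were) had a sum of 44.1 to 50.2 in adult. On P10 replicates 1 to 4 its sum was 11.8, 18.2, 25.6 and 26.0. Its miR-375 lay between 3.59 and 3.91 in adult, against 2.89, 3.18, 3.57 and 3.43 on P10 replicates 1 to 4. On P10 arrays miR-7a, miR-7b and miR-153 kept the order of miR-143, while miR-375 and miR-204 did so only on replicates 1 to 3. The part of brightness and of other cells in the values of miR-143 and miR-145 was not tested. In these whole-islet RNA samples, fewer cells of a type and less of an RNA per cell cannot be told apart.

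**Figure D3:**
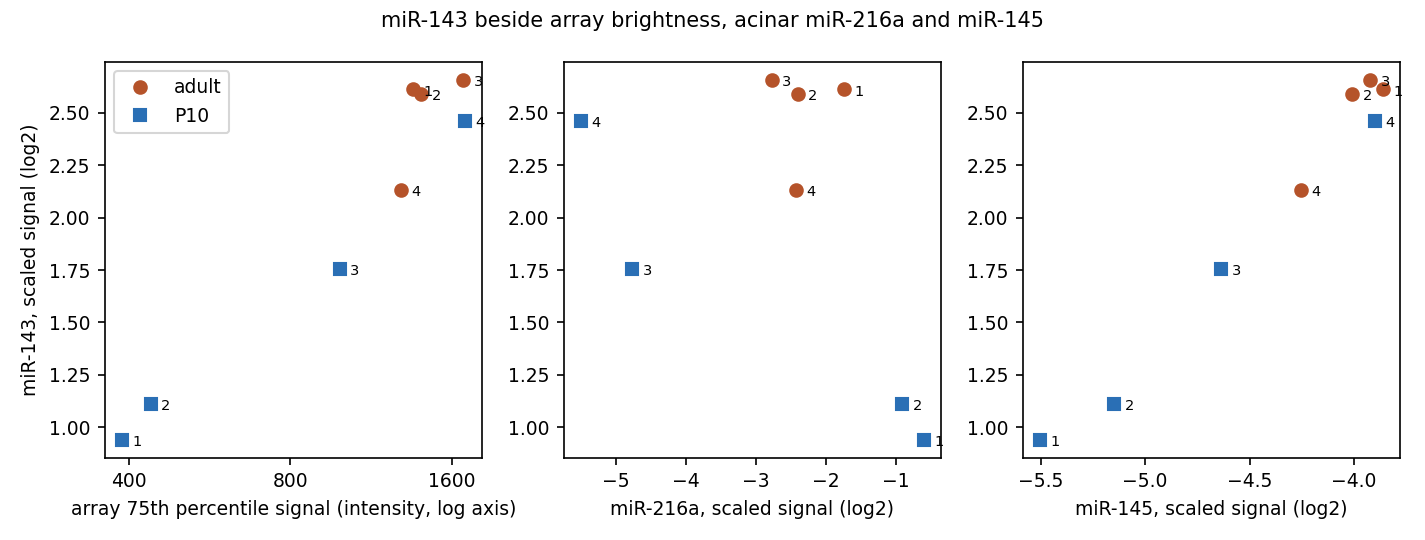
Scaled log2 signal of miR-143 (vertical axes) against the array's 75th percentile signal (left, log axis), acinar miR-216a (middle) and miR-145 (right), 1 point per array, numbered by replicate. P10 replicates 1 and 2 are the dimmest arrays, with 75th percentiles of 388 and 440, the lowest miR-143 and the highest miR-216a.

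Other miRNAs of mesenchymal cells did not move as 1 group. Of the 8 in the list beside miR-143 and miR-145, all tested, 3 were called higher (miR-195, miR-497 and miR-140) and 3 lower in adult (miR-199a-5p, miR-199a-3p and miR-214), where 27.3% of all tested miRNAs were called higher and 20.2% lower. Their median difference was -0.19, against -0.01 over all tested miRNAs. Their summed scaled signal was 3.14 to 3.95 in adult and 4.32 to 4.91 in P10. All 8 were well above background on at least 1 array.

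miR-199a-5p, from a cluster with miR-214 that is active in mesenchyme, was lower on every adult array, at -2.45, -2.33, -2.47 and -2.63 on adult replicates 1 to 4, against -0.78, -0.57, -0.58 and -0.95 on P10 replicates 1 to 4. It fell by 1.75 on the log2 scale (SE 0.13, limma adjusted p = 2.75e-05, n = 4 per age). miR-214 (-1.64) and miR-199a-3p (-1.62) fell as well, and for each the ages did not overlap. In the order miR-199a-5p, miR-214 and miR-199a-3p, their differences were -0.79, -0.68 and -0.66 when arrays were not scaled and -0.70, -0.59 and -0.57 on the spike-in controls, and none of these passed. After cyclic loess across all probes miR-199a-3p (-0.67) did not pass.

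miR-195 and miR-497 come from 1 cluster and share the seed family of miR-15 and miR-16, known to restrain the cell cycle. miR-195 lay at -0.17, -0.17, -0.22 and -0.49 on adult replicates 1 to 4, against -2.05, -1.83, -1.36 and -1.26 on P10 replicates 1 to 4. It rose by 1.36 (SE 0.20; limma, 4 arrays per age, adjusted p = 0.000815). The ages did not overlap, but cyclic loess across all probes ended its call (0.59). miR-497 rose by 1.14 and kept its call in all 27 alternative settings. miR-140 rose by 0.50 (limma adjusted p = 0.0444) and was called in 14 of 27 settings. The differences of miR-10b (-0.36) and miR-152 (-0.02) did not pass, and both took the opposite sign in other settings. miR-10b was called lower in 3 settings, with the mean over probes (-0.63), the other probe (-0.91) and P10 replicates 3 and 4 only (-0.65). miR-152 was called higher with P10 replicates 3 and 4 only (0.50) and when all probes set the percentile (0.45), and lower with array weights (-0.41).

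**Figure D4:**
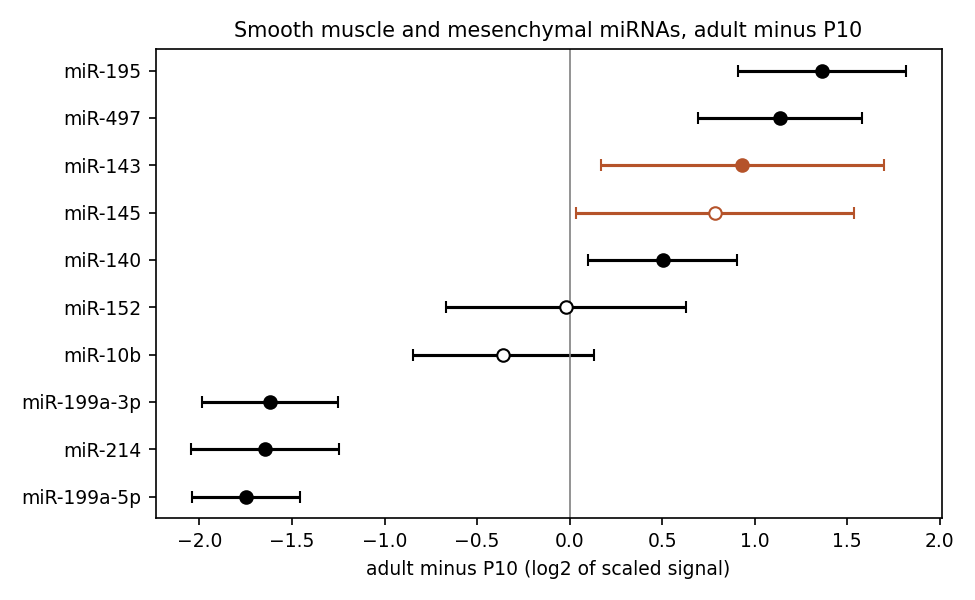
Log2 differences of scaled signal, adult minus P10, of the 10 smooth muscle and mesenchymal miRNAs with 95% intervals (limma, 4 arrays per age); filled circles have an adjusted p under 0.05 and miR-143 and miR-145 are drawn in orange. The differences run from -1.75 for miR-199a-5p to 1.36 for miR-195.

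The change of miR-143 was set against that of each of the other 9 list members within arrays, by the log2 ratio of the 2 signals. The ratio of miR-143 to miR-199a-5p was 4.76 to 5.13 in adult and 1.69 to 3.41 in P10, a difference of 2.68 with no overlap (exact two-sided permutation p = 0.0286, the smallest possible, and 0.0514 after Benjamini-Hochberg adjustment over the 9 ratios). The ratios to miR-214 (2.58), miR-199a-3p (2.55), miR-10b (1.29) and miR-195 (-0.43) also did not overlap between the ages, with the same exact and adjusted p. The ratios to members other than miR-145 were added after values had been seen, so their separation partly restates the single differences given above. The share of such ratios over all tested miRNAs was not computed, while 45.8% of single tested miRNAs showed no overlap. For miR-195 the sign means that miR-143 gained less than miR-195. After cyclic loess across all probes the ratios to miR-195 (-0.06, exact permutation p = 0.886), miR-10b (0.67, exact permutation p = 0.200) and miR-199a-3p (1.20, exact permutation p = 0.171) overlapped between the ages. So did the ratio to miR-195 with normexp (-0.12, exact permutation p = 0.771) and that to miR-10b after quantile normalization (0.83, exact permutation p = 0.0571). The ratios to miR-145 (0.15), miR-140 (0.43), miR-497 (-0.20) and miR-152 (0.95) overlapped, with exact p between 0.0857 and 0.371. That to miR-497 had an exact permutation p of 0.0286 after quantile normalization (-0.75) and after cyclic loess on bright probes (-0.66). With P10 replicates 3 and 4 alone, the ratio to miR-199a-5p still differed by 2.09 and that to miR-214 by 1.92, with an exact p of 0.0667 for each, the smallest that 2 against 4 arrays can give.

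The striated muscle miRNAs other than miR-133b were close to background. Of 6 striated muscle miRNAs, miR-1, miR-133a, miR-206 and miR-208 were not well above background on any array, and miR-499 was so on 3 adult arrays only. miR-133b was well above background on 4 adult and 2 P10 arrays and was tested. It stood at -3.76 ± 0.33 in adult and -4.92 ± 0.98 in P10 (SD, n = 4 each). Its difference of 1.16 did not pass (limma adjusted p = 0.0728). The summed scaled signal of the striated muscle list was 0.0806 to 0.128 in adult and 0 to 0.0904 in P10. The endothelial arms miR-126 (-0.15) and miR-126* (-0.06) did not pass, where 47.5% of all tested miRNAs did. Their sum was 2.92 to 3.32 in adult and 2.34 to 4.71 in P10.

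Among 6 miRNAs studied in the growth state of vascular smooth muscle, 5 were tested, and 1 was called higher and 1 lower, where 47.5% of all tested miRNAs were called. Their median difference was -0.35. miR-24 rose by 1.04 (limma adjusted p = 0.000753) and miR-100 fell by 0.58 (limma adjusted p = 0.0472). miR-21 (-0.35), miR-221 (-0.35) and miR-26a (0.20) did not pass, and no array had miR-222 well above background. Their summed scaled signal was 14.1 to 17.0 in adult and 13.1 to 15.6 in P10.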

How the data were processed

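Per the file headers, the deposited intensity values came from version 10.7.3.1 of Agilent Feature Extraction. The deposited processed signal has its background subtracted and can fall below 0. The authors' deposited value table gives log2 values of 311 miRNAs, and its normalization is not stated in the labels or headers. Its columns share a median of 6.54 and rank miRNAs as the array's total gene signal does (Spearman correlation 1), which settles scale and direction, with no sign of centring.

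Outlier features (2.34% to 3.65% per array) were left out and a probe's other features averaged. Probes with most features well above background were called so. Scaled values were raised to a floor of -5.51 (per array, percentile 1 of probes well above background, then the median over arrays) before log2. The probe of highest mean stood for its miRNA. Tests used limma 3.58.1 in R 4.3.3 (lmFit, eBayes, no block) on miRNAs well above background on 4 or more of the 8 arrays. The number of arrays limits the precision. Ratios within arrays were compared by exact permutation. The limma step was tested on simulated data. No 2 arrays were identical (highest correlation 0.997).

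The members, lists, named miRNAs and alternatives were chosen with earlier results of these data known. The rule for named miRNAs took all members, all of the smooth muscle and mesenchymal list, up to 2 examples of each other list with the largest differences, and the 5 tested miRNAs closest to each member. Further list members were named, and the ratios to list members other than miR-145 were added, after values had been seen. Of the other lists, erythroid cells had 2 of 2 tested members called higher, gut epithelium 3 of 3 lower and islet endocrine cells 5 of 5 higher, where 27.3% of all tested miRNAs were called higher and 20.2% lower. miR-155 and miR-486 were not analysed here, and miR-216b was taken as its 5p arm. The planned normexp correction used median signals. Spike-in scaling used control probes well above background on all arrays. All 4 mature arms were matched to RefSeq (GRCr8), and the pairing of array names with arms is background knowledge.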

Additional observations from a re-analysis of the deposited data

Results flagged for a closer look

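Of 77 groups of 4 arrays checked, 6 held an array far from the other 3 (Dixon's test at 95%, by which chance flags about 1 in 20). On adult replicate 4 miR-143 (2.13), miR-195 (-0.49) and the red blood cell miRNA miR-451 (-2.13) lay below the other adult arrays. On P10 replicate 4 miR-133b (-3.47) and the leukocyte products miR-142-3p (1.36) and miR-142-5p (-2.07) lay above the other P10 arrays. These are scaled log2 signals. Adult replicate 4 was also the adult array with the lowest miR-145 (-4.25).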

How the results depend on the processing

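miR-143 kept its direction in all 27 settings, some of which could not change its difference. It lost its call unscaled (1.89), on spike-in controls (1.98), after quantile normalization (0.47), cyclic loess across all probes (0.52) or bright ones (0.43) and normexp (0.95), with the mean over probes (0.95), the other probe (0.98), P10 replicates 3 and 4 only (0.39) and in the authors' value table (0.62), and, at 0.93, with a floor at a signal of 1 (adjusted p = 0.0506) or no filter (adjusted p = 0.229, as more miRNAs are tested). It ranged from 0.72 to 1.23 with 1 array left out. miR-145 gained a call when all probes set the percentile (1.00) and with array weights (1.17), turned to -0.27 with normexp, and ranged from 0.55 to 1.09 with 1 array left out. It was not tested where all 8 arrays had to be above background. The log2 ratio of miR-143 to miR-145 turned to -0.51 after quantile normalization, to -1.38 and -1.05 after cyclic loess (all and bright probes) and to -0.29 in the authors' value table, and kept its sign at 1.22 with normexp. Its exact permutation p was 0.0286 with the mean over probes (0.42) and the other probe (0.70), and also for -0.51 and -1.05. The other probe of miR-145 lay at the floor on P10 replicates 1 to 3, so 0.42 and 0.70 rest in part on the floor. The ratio ranged from 0.11 to 0.19 with 1 array left out. The cause of these changes was not tested. No asterisked product was tested in any setting with a filter. With no filter both lay at the floor on all 8 arrays, so that a call was not possible.

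With the replicate number as a block the difference of miR-143 stayed at 0.93 and its limma adjusted p was 0.109, and 95 miRNAs were called. With the slide row as a block miR-143 kept its call (0.93, limma adjusted p = 0.0448), and 90 miRNAs were called. Same-numbered arrays deviated from their age's mean with correlations of 0.177, -0.090, 0.475 and -0.230, so the numbers were not taken as pairs. The 113 calls became 75 unscaled, 34 after cyclic loess across all probes, 68 on spike-in controls and 179 with array weights, and 84 to 138 with 1 array left out. The 18 calls among list members other than miR-143 and miR-145 became 10, 7 and 9 in the first 3 of these and 11 without a filter, and 13 to 21 with 1 array left out. Over all tested miRNAs, 113 of 238 (47.5%) were called as reported and 85 of 677 without a filter. The counts of list members show their stability only and are no result about the lists.

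Signs turned for miR-10b when all probes set the percentile (0.11), unscaled (0.60) and on spike-in controls (0.69), and for miR-152 in these 3 (0.45, 0.94 and 1.03), with quantile normalization (0.068), the total gene signal (0.10), the authors' value table (0.16), P10 replicates 3 and 4 only (0.50) and without P10 replicate 1 (0.17) or 2 (0.14) or adult replicate 1 (0.029), in a range of -0.19 to 0.17 with 1 array left out. The ratio of miR-143 to miR-140 turned with quantile normalization (-0.15), cyclic loess on bright probes (-0.12) and in the authors' value table (-0.022), that to miR-497 with normexp (0.085) and the other probe (0.20), and that to miR-152 with P10 replicates 3 and 4 only (-0.11). Over 18 settings the ratio to miR-199a-5p lay between 2.08 and 3.06 (exact permutation p under 0.05 before adjustment in 17) and that to miR-214 between 1.92 and 3.03 (in 13). That to miR-199a-3p lay between 1.20 and 2.98 (in 12), that to miR-10b between 0.67 and 1.88 (in 15) and that to miR-195 between -0.99 and -0.06 (in 10). With P10 replicates 3 and 4 only, the smallest possible exact permutation p is 0.0667, so no ratio could be counted in that setting.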
